A study of Drosophila melanogaster with 6 samples.

Results

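The clan 3 genes of the cytochrome P450 superfamily of Drosophila melanogaster comprise the Cyp6, Cyp9, Cyp28, Cyp308, Cyp309, Cyp310 and Cyp317 families. They were taken here as the probe sets whose annotated gene symbol begins with 1 of these family names. This gave 37 genes, each with 1 probe set, of 11982 genes named by a probe set of their own and 18952 probe sets in all. RNA of whole young larvae of the third instar, reared on baker's yeast, was measured on oligonucleotide arrays. The 3 gain samples came from a transgenic line in which a heat-inducible promoter drives a cDNA of the whole nuclear receptor DHR96, encoded by Hr96, made by P-element transformation of w1118. The 3 control samples were larvae of w1118 itself, which carry no transgene. Larvae of both groups were held at 37.5 °C for 1 h, beginning 3 h after the moult, and were collected for RNA 4 h after that. The gain group is 1 transgenic line, no unheated larvae of that line were analysed here, and so the induced receptor and any standing difference between the line and its host cannot be told apart. Whether replicate samples were reared apart is not stated in the labels, so p-values measure only the spread between these samples, which may be technical.

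Cytochrome P450 enzymes are haem proteins that insert an oxygen atom into their substrates, with electrons that reach microsomal members through a reductase and, for some reactions, cytochrome b5. Clan 3 is the part of the insect superfamily best known for metabolism of insecticides and plant toxins, and many of its genes stand in tandem clusters of near copies. Several members are active in the larval midgut, Malpighian tubules and fat body, the tissues where foreign compounds are handled. DHR96 belongs to the receptor class of the vertebrate xenobiotic receptors and is known in flies for roles in the response to toxic compounds and in the handling of sterols and fats. The comparison asks which of these genes differ when the receptor is made in excess.

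The deposited intensities are given below as log2 values, and a difference is gain minus control on that scale. Values near 2 are among the lowest on these arrays. A gene was tested when its log2 value was at least 4 on at least 3 of the 6 arrays, and a gene is said to rise or fall when its adjusted p over all 7974 tests was under 0.05. Hr96 lay at 14.73, 14.71 and 14.64 in gain larvae, against 9.47, 9.82 and 9.50 in control larvae. The signal was 34.2-fold higher in gain (difference 5.10 ± 0.13, SE, n = 3 per group, adjusted p = 1.86e-05). The arrays were not equally spaced. The SD of the difference between 2 arrays over all tests was 0.310 to 0.370 within gain, while in control it was 0.204 for controls 1 and 2 and 0.432 and 0.482 for control 3 against each of them. Gain 2 was dimmer, with a median of -0.29 against the other gain arrays over all tests and -0.19 over the tested members. Control 3 was the lowest control array for 15 of the 24 tested members. Its median against the other control arrays was -0.14 over the tested members and 0.02 over all tests. The median difference over all tests was -0.15, and 75.0% of all tests had a negative difference. It became 0.11 with median centring of the arrays, 0.04 with quantile normalization and -0.00068 with median difference centring, in which each array is moved by the median of its differences from the average of all arrays.

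Of the 24 members that passed the filter 4 fell in gain larvae, none rose and 20 did not pass. The 4 were Cyp6a22, Cyp9h1, Cyp317a1 and Cyp9b2, and their differences lay between -1.36 and -0.81. They were 16.7% of the tested members, where 3.93% of all tests were called, 3.47% as lower and 0.451% as higher. Cyp9h1 passed the filter through its control arrays alone, and without it 3 of 23 tested members fell, 13.0%. By unadjusted p under 0.05, 10 members passed, 41.7%, against 21.1% of all tests, and 9 of them were lower, 37.5%, against 18.5%. The median difference of the tested members was -0.31, or -0.30 with Cyp9h1 held at the floor of 4, against -0.15 over all tests. It lay 0.16 below that of all tests, and 0.20 below after quantile normalization, where 3.52% of all tests were lower and 2.13% higher. Centring moves all genes of an array alike, so by its construction it leaves this gap as it is. With 1 array left out, the median of the members minus that of all tests ran from -0.067 without gain 3 to -0.20 without gain 2. A negative difference was found for 20 of the 24 members as deposited, 83.3%, against 75.0% of all tests. It was found for 15 with median centring or quantile normalization, where the median of all tests was positive, at 0.11 and 0.04. With median difference centring it was found for 16. Without control 1, and likewise without control 2, none of the 4 calls held, at adjusted p from 0.0560 to 0.175, and the calls over all tests were 27 lower and 12 higher without control 1, and 45 lower and 14 higher without control 2. In RNA of whole larvae, fewer cells of a type and less RNA per cell cannot be told apart.

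**Figure D1:**
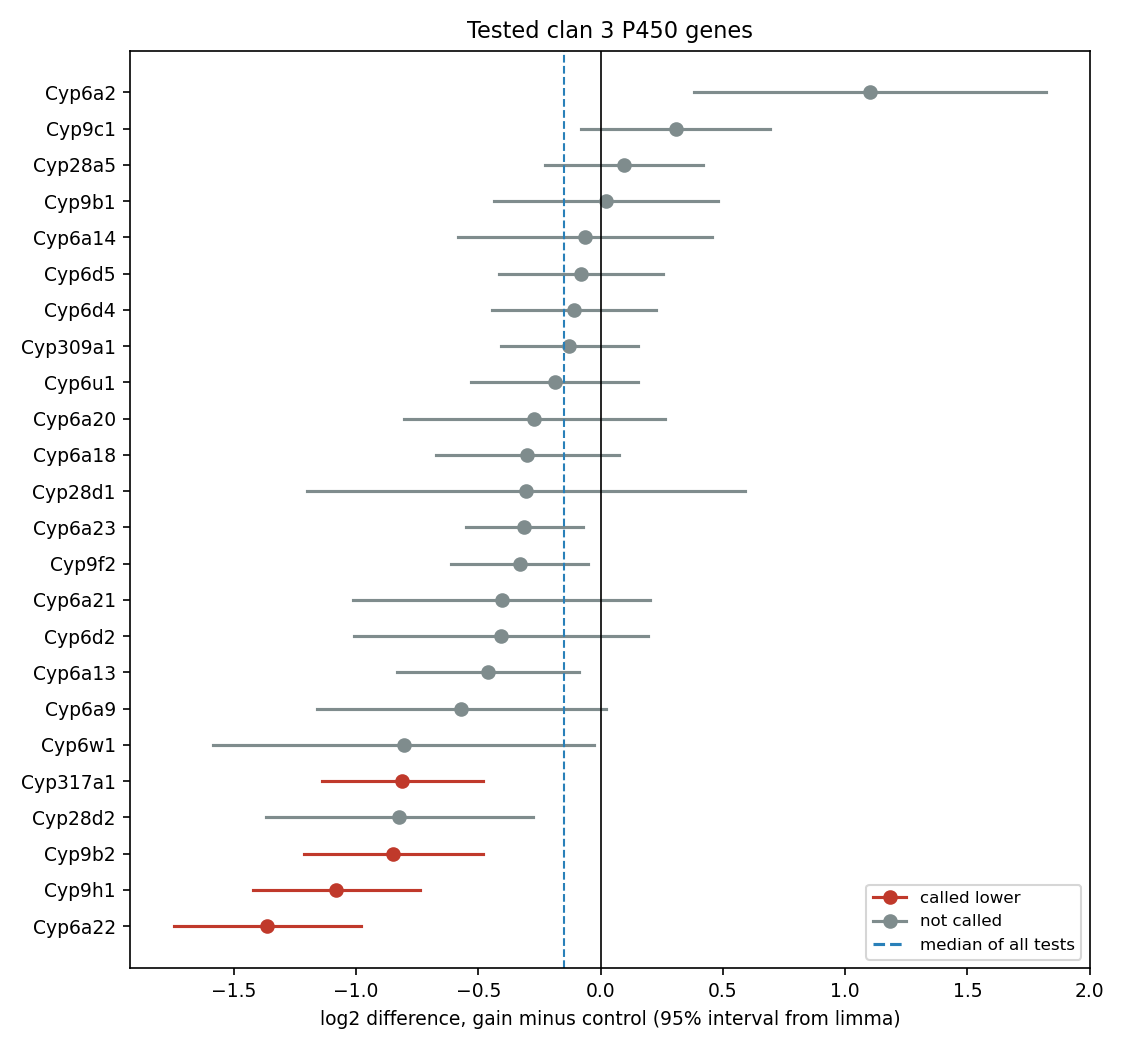
Log2 difference (horizontal axis, gain minus control) of each of the 24 tested clan 3 P450 genes, with points for the estimate, lines for the 95% interval from limma, red for the 4 called lower and a dashed line at the median of all tests, -0.15. The differences run from -1.36 for Cyp6a22 to 1.10 for Cyp6a2, and 20 of the 24 points lie left of 0; the point of Cyp9h1 is its measured value, below the floor in gain.

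Cyp6a22 had the largest difference of the tested members. It lay at 4.48, 4.60 and 4.92 in gain larvae, against 6.11, 6.16 and 5.81 in control larvae. The groups were 0.90 apart at their nearest arrays. The difference was -1.36 ± 0.16 (SE, n = 3 per group, adjusted p = 0.0098), a signal 2.57-fold higher in control. With a floor of 6 it was not tested, since fewer than 3 arrays reached that level. With a pseudocount of 16, which shrinks differences of dim genes, its difference was -0.97.

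Cyp9h1 lay below the floor of 4 on all gain arrays, at 3.15, 2.79 and 3.22, and just above it in control larvae, at 4.13, 4.22 and 4.06. The signal is near background in both groups, although no gain array reached any control array. It entered the tests only through the control arrays, so its call rests in part on the filter. The gain values give only a bound, at least 1.10-fold lower (adjusted p = 0.0146). It had no test with a floor of 6 and did not pass with no filter (adjusted p = 0.0520).

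Cyp317a1, the single member of its family in the fly, lay at 5.74, 5.48 and 5.74 in gain larvae, against 6.35, 6.67 and 6.37 in control larvae. All gain arrays were below all control arrays, by 0.61 at the nearest. The difference was -0.81 ± 0.14 (SE, n = 3 per group, adjusted p = 0.0317). Of the leave-one-out fits it passed in 1, that without control 3 (adjusted p = 0.0422).

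Cyp9b2 was well above the floor on all arrays. It lay at 12.95, 13.05 and 13.41 in gain larvae, against 14.04, 13.83 and 14.08 in control larvae. The groups did not overlap. The difference was -0.85 ± 0.15 (SE, n = 3 per group, adjusted p = 0.0382), a signal 1.80-fold higher in control. With median centring the difference was -0.59 and did not pass (adjusted p = 0.0677), and of the leave-one-out fits it passed in 1, that without gain 3 (adjusted p = 0.0338).

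**Figure D2:**
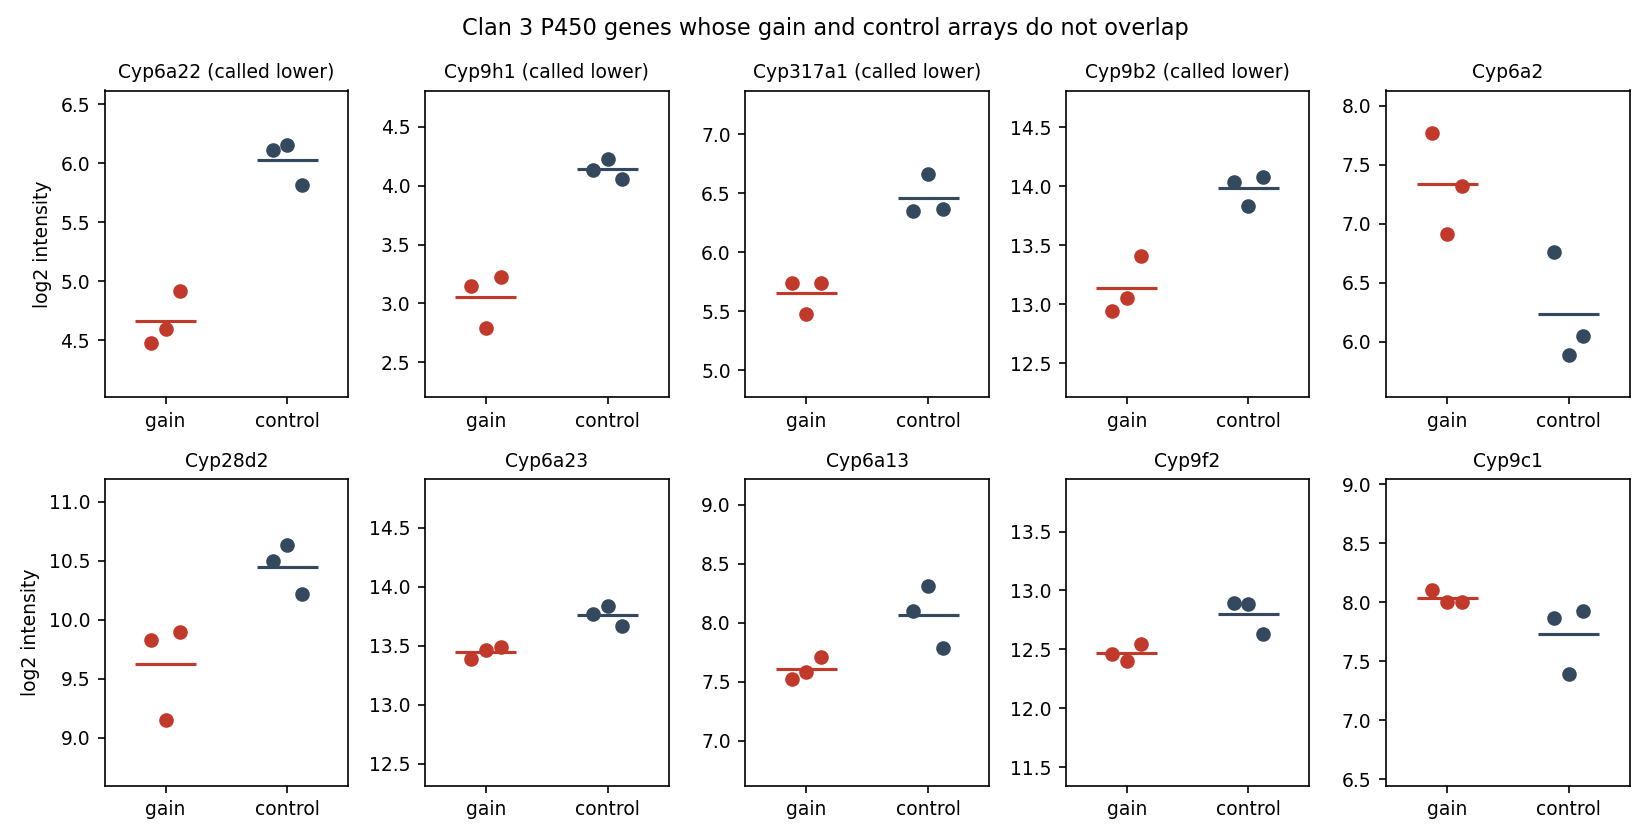
Log2 intensity (vertical axis, each panel at its own level with the same span) of the 10 tested members whose arrays do not overlap between groups, with gain arrays in red on the left, control arrays in dark blue on the right and a line at each group's mean. The 4 called genes are marked; 8 of the 10 have every gain array below every control array, and Cyp6a2 and Cyp9c1 have the opposite order.

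Besides the 4 called genes, 6 members had groups that did not overlap. In all, every gain array lay below every control array for 8 of 24 members, 33.3%, against 25.2% of all tests, and above for 2, 8.33%, against 5.49%. These shares are not far from those of all tests. Cyp6a2 had the largest positive difference of the tested members. Cyp6a2 is an enzyme linked to insecticide metabolism and is known to be inducible by phenobarbital. It lay at 7.77, 6.91 and 7.32 in gain larvae, against 6.76, 5.89 and 6.05 in control larvae. The lowest gain array was 0.15 above the highest control array. Its difference of 1.10 ± 0.30 (SE, n = 3 per group) did not pass (adjusted p = 0.107), and the 95% interval ran from 0.38 to 1.82. It passed as higher with quantile normalization, median centring, median difference centring, array weights and the replicate number as a block, at differences from 1.09 to 1.37 and adjusted p from 0.0248 to 0.0471.

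Cyp28d2 lay at 9.83, 9.15 and 9.90 in gain larvae, against 10.50, 10.64 and 10.22 in control larvae. The groups did not overlap, and its difference of -0.82 ± 0.23 did not pass (SE, n = 3 per group, adjusted p = 0.110). Its size was close to that of Cyp317a1 and Cyp9b2, which passed, and its SE was larger. Cyp6a23 lay at 13.39, 13.47 and 13.49 in gain larvae, against 13.77, 13.84 and 13.67 in control larvae, a difference of -0.31 (adjusted p = 0.149). The arrays of each group were close together and the groups were 0.18 apart.

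Cyp6a13 lay at 7.52, 7.59 and 7.71 in gain larvae, against 8.10, 8.32 and 7.79 in control larvae, with a difference of -0.46 (adjusted p = 0.167). Control 3 was the lowest of its control arrays and the nearest to gain. Cyp9f2 lay at 12.46, 12.40 and 12.55 in gain larvae, against 12.89, 12.89 and 12.63 in control larvae, with a difference of -0.33 (adjusted p = 0.178). Here too control 3 was the nearest to gain. Cyp9c1 was the other member with gain above control, at 8.10 on gain 1 and 8.0 on gains 2 and 3, against 7.87, 7.39 and 7.92 in control larvae. Its difference was 0.31 (adjusted p = 0.336), and the groups were 0.08 apart.

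Among members whose groups overlapped, the largest differences were those of Cyp6w1, Cyp6a9, Cyp6d2 and Cyp6a21, and none of these 4 passed. Cyp6w1, linked to DDT resistance in selected strains, lay at 5.82, 4.64 and 5.04 in gain larvae, against 6.33, 5.90 and 5.68 in control larvae. Gain 1 reached into the control range, and the difference was -0.81 ± 0.32 (SE, n = 3 per group, adjusted p = 0.224). Cyp6a9 lay at 7.68, 7.68 and 7.53 in gain larvae, against 8.40, 8.56 and 7.63 in control larvae. Control 3 sat at the gain level while controls 1 and 2 stood well above it. The difference was -0.57 (adjusted p = 0.251), and without control 3 it was -0.85 and passed (adjusted p = 0.0230).

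Cyp6d2, linked to tolerance of the plant alkaloid camptothecin, lay at 8.82, 8.41 and 9.36 in gain larvae, against 9.11, 9.22 and 9.49 in control larvae. The gain arrays were widely spread, and the difference was -0.41 (adjusted p = 0.397). Cyp6a21 lay at 9.41, 8.57 and 8.47 in gain larvae, against 9.34, 9.16 and 9.16 in control larvae, with a difference of -0.41 (adjusted p = 0.405). Gain 1 was above all control arrays and the other gain arrays below them.

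The other 10 tested members had differences from -0.31 to 0.09 and adjusted p from 0.327 to 0.964. Cyp28d1, linked to resistance to nicotine, had the largest control SD of all tested members, 0.77. It lay at 11.54, 11.95 and 11.68 in gain larvae, against 12.44, 12.51 and 11.14 in control larvae. Control 3 was below all gain arrays and the other controls above them. The difference of -0.31 had a 95% interval from -1.20 to 0.59, and without control 3 it was -0.75 (adjusted p = 0.0554). It passed as lower with array weights (-0.83, adjusted p = 0.0160) and without control 3 and gain 2 together (-0.87, adjusted p = 0.0212). Cyp6a20, known for a role in male aggression, averaged 6.92 ± 0.45 in gain larvae and 7.19 ± 0.0022 in control larvae (SD, n = 3 each), the smallest control spread among the tested members. Its difference was -0.27, with an interval from -0.81 to 0.26.

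Cyp6d5, known to be inducible by phenobarbital, averaged 12.23 ± 0.23 in gain larvae and 12.31 ± 0.04 in control larvae (SD, n = 3 each). The interval of its difference, -0.41 to 0.25, holds no change as large as 2-fold in either direction. Cyp6d4 had a difference of -0.11, and Cyp28a5 averaged 13.78 in gain larvae and 13.68 in control larvae. Cyp309a1 averaged 10.61 in gain larvae and 10.74 in control larvae. The intervals of these 3 genes lay between -0.45 and 0.42. Cyp6a18 and Cyp6u1 had differences of -0.30 and -0.19, and Cyp6a14 and Cyp9b1 of -0.06 and 0.02. With median centring the differences of Cyp6u1, Cyp309a1, Cyp6d4, Cyp6d5 and Cyp6a14 turned positive.

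The filter left 13 members untested, and 12 of these 13 lay below the floor of 4 on all 6 arrays. For 10 genes no array reached 3: Cyp6g1, Cyp6g2, Cyp6t1, Cyp6t3, Cyp6a8, Cyp6a17, Cyp28c1, Cyp308a1, Cyp309a2 and Cyp310a1. Cyp6g1, whose overexpression gives resistance to DDT in field strains, lay at 2.35, 2.36 and 2.35 in gain larvae, against 2.36, 2.42 and 2.33 in control larvae. Cyp6a8, known to respond to several foreign compounds, lay at 1.97, 2.01 and 1.96 in gain larvae, against 1.95, 1.95 and 1.95 in control larvae. Cyp6t3, linked to ecdysone synthesis in the prothoracic gland, lay between 2.05 and 2.10 in gain larvae and between 2.04 and 2.05 in control larvae. All 3 lay among the low values of the arrays in both groups. Cyp6a19 had 1 array above the floor, at 3.84, 3.47 and 3.39 in gain larvae, against 3.87, 4.13 and 3.67 in control larvae. Cyp6a16 lay between 3.57 and 3.87 over the 6 arrays and Cyp6v1 between 3.87 and 3.91. Another probe set, listed for both shn and Cyp6v1 and therefore no member, lay at 9.43, 8.60 and 8.74 in gain larvae, against 8.76, 8.68 and 8.43 in control larvae, and the annotation does not say which of the genes it reads.

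By family, 1 of the 9 tested Cyp6a genes fell, none of the 5 other tested Cyp6 genes, 2 of the 5 tested Cyp9 genes (1 of 4 without Cyp9h1), none of the 3 tested Cyp28 genes, and Cyp317a1 of the 2 tested genes of the remaining families. Of all tests 3.47% were called lower. The median differences were -0.31 for Cyp6a, -0.19 for the other Cyp6 genes, -0.33 for Cyp9 and -0.31 for Cyp28. All 5 Cyp9 genes passed the filter, against 9 of 13 Cyp6a genes and 5 of 10 other Cyp6 genes.

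In the reference gene order 9 members follow each other without another gene between them, from Cyp6a22 through Cyp6a17, Cyp6a23, Cyp6a19, Cyp6a9, Cyp6a20, Cyp6a21 and Cyp6a8 to Cyp317a1. The 2 called genes of this run, Cyp6a22 and Cyp317a1, stand at its ends. The differences of all 6 tested genes of the run were negative (median -0.49). Of all tests 75.0% were negative and 3.47% were called lower. The 4 tested genes between the ends had differences from -0.57 to -0.27 and did not pass. With median centring these were -0.06 for Cyp6a23, -0.32 for Cyp6a9, -0.02 for Cyp6a20 and -0.15 for Cyp6a21. Cyp6a17, known for a role in temperature preference, lay between 2.32 and 2.46 on all arrays and was not tested. Cyp6a23 is the tested gene nearest to Cyp6a22 in the run, with the untested Cyp6a17 between them. The difference of Cyp6a22 minus that of Cyp6a23 was -1.05 (exact permutation test over arrays, two-sided, p = 0.1, the smallest that 3 arrays against 3 allow). This pair holds a gene already called on the same arrays, and no such comparison was made for Cyp317a1. Copies in such a cluster are alike in sequence, and how far each probe set reads its neighbours is not known here.

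**Figure D3:**
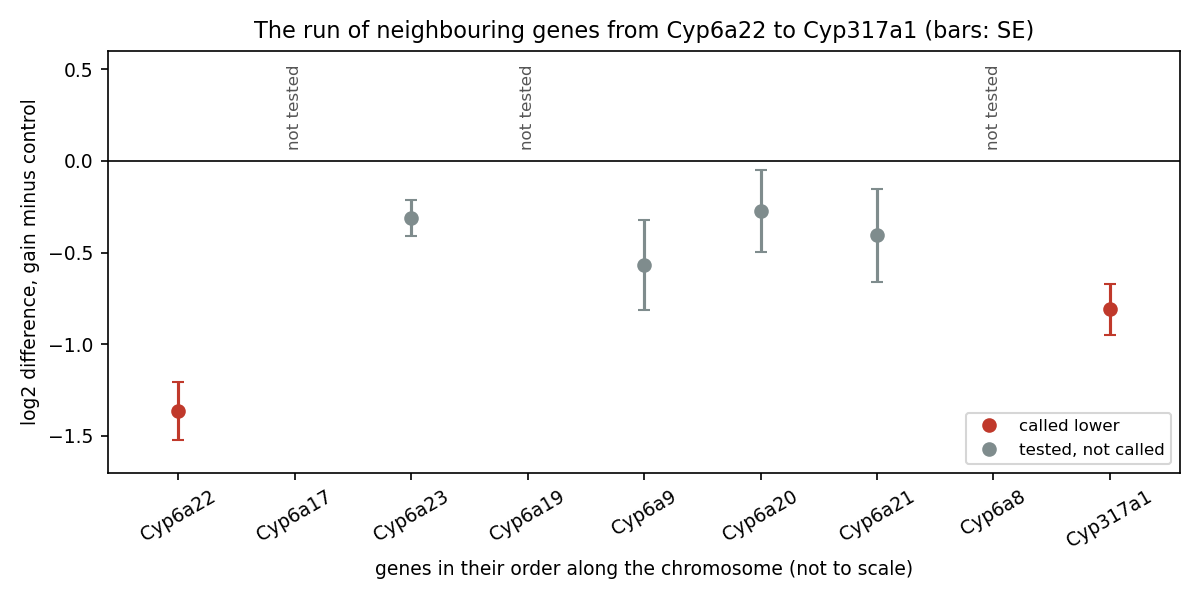
Log2 difference (vertical axis, gain minus control, bars for the SE) of the 9 neighbouring members in their order along the chromosome, with called genes in red and tested genes that were not called in grey. The called genes Cyp6a22, at -1.36, and Cyp317a1, at -0.81, stand at the ends of the run; Cyp6a17, Cyp6a19 and Cyp6a8 were not tested.

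Cyp9b1 and Cyp9b2 are also neighbours. Cyp9b1 lay at 10.42, 10.48 and 11.08 in gain larvae, against 10.62, 10.57 and 10.72 in control larvae, and its groups overlapped. The difference of Cyp9b2 minus that of Cyp9b1 was -0.87, with no overlap of the groups (exact permutation test, two-sided, p = 0.1, the smallest possible). This pair too holds a gene already called on the same arrays, so its lack of overlap is not separate support. For Cyp28d2 minus its neighbour Cyp28d1 the value was -0.52 (exact permutation p = 0.6), and for Cyp6a13 minus Cyp6a14, which flank a pseudogene, -0.40 (exact permutation p = 0.3), and the arrays of both groups overlapped in those pairs. Cyp6g1, Cyp6g2 and Cyp6t3 form a run of 3 with no tested gene, and Cyp309a1 was tested while its neighbour Cyp309a2 was not.

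Calls were also made among P450 genes outside clan 3. In clan 4, 1 of 15 tested genes fell, Cyp4c3, at 6.15, 6.34 and 6.73 in gain larvae, against 7.71, 7.62 and 7.18 in control larvae (difference -1.10, adjusted p = 0.041). In clan 2 and the mitochondrial clan together 2 of 10 fell, Cyp12a5 at -0.85 (adjusted p = 0.037) and Cyp305a1 at -0.58 (adjusted p = 0.0485). The share called lower over all tests was 3.47%. The median differences were -0.31 in clan 3, -0.27 in clan 4 and -0.34 in the third group, and no test of a difference between the clans was made. A member of clan 3 passed the filter in 24 of 37 cases, against 15 of 32 in clan 4 and 10 of 17 in the others.

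**Figure D4:**
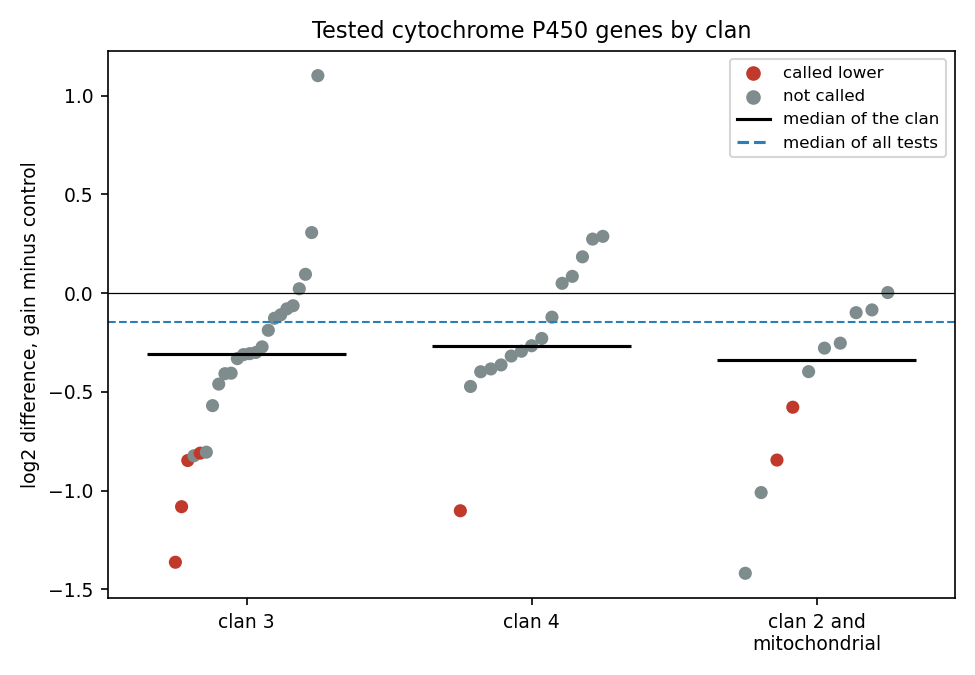
Log2 difference (vertical axis, gain minus control) of each tested cytochrome P450 gene, by clan, with red points for genes called lower, black lines at the clan medians and a dashed line at the median of all tests. The clan medians of -0.31, -0.27 and -0.34 lie below the median of all tests, -0.15.

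None of the 5 tested genes for electron partners of P450 enzymes passed. Cyt-b5, which encodes cytochrome b5, averaged 13.76 ± 0.11 in gain larvae and 13.75 ± 0.27 in control larvae (SD, n = 3 each). CG6870, listed here as a cytochrome b5 relative, lay at 7.33, 6.51 and 6.67 in gain larvae, against 8.83, 9.96 and 7.30 in control larvae. Control 3 fell within its gain range, and the difference of -1.86 ± 0.64 (SE, n = 3 per group) did not pass (adjusted p = 0.175). Cpr, the reductase of microsomal P450 enzymes, was not analysed here. None of 7 tested haem synthesis genes passed, with a median of -0.09. Alas, the enzyme that starts haem synthesis, had a difference of 0.54 (adjusted p = 0.231), and Coprox -0.44 (adjusted p = 0.234). Of 7 tested regulators of xenobiotic genes Hr96 alone passed, and ss, Met and gce did not reach the filter. The gene cnc, for the activator of many detoxification genes, lay at 12.14, 12.12 and 12.09 in gain larvae, against 12.11, 12.07 and 12.05 in control larvae, which gave 0.04 ± 0.09 for the change (SE, n = 3 per group, adjusted p = 0.827). Its inhibitor Keap1 had a difference of -0.51 (adjusted p = 0.416), with gain 2 at 5.64 and the other 5 arrays between 6.72 and 7.07.

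Markers of larval tissues that could hold these transcripts were set beside them. Of 14 tested midgut markers 5 fell, the trypsin genes betaTry, epsilonTry, lambdaTry and iotaTry and GATAe, a transcription factor gene of the midgut. The share called lower over all tests was 3.47%. The other 9 midgut markers did not pass, with differences from -0.56 for LManII to 0.02 for Mal-A6. GATAe lay at 7.93, 7.95 and 8.25 in gain larvae, against 9.37, 9.35 and 9.28 in control larvae (difference -1.29 ± 0.12, SE, n = 3 per group, adjusted p = 0.0063). The summed intensity of the midgut markers was 130409 to 144395 in gain larvae and 214436 to 226702 in control larvae. The trypsin genes betaTry, epsilonTry and lambdaTry lay between 2.03 and 5.40 in gain larvae and between 10.70 and 15.12 in control larvae. Without these 3, chosen after their values were seen, the sum of the other 11 midgut markers was 130371 to 144329 in gain larvae and 151881 to 163760 in control larvae. None of 6 fat body markers passed, with sums of 58533 to 65372 in gain larvae and 68339 to 90202 in control larvae. All sums given here are of deposited intensities without centring, and the brightest genes weigh most in them. Among the fat body markers Lsp2 lay at 12.16, 12.10 and 12.62 in gain larvae, against 13.16, 11.64 and 14.45 in control larvae. None of 5 tested Malpighian tubule markers passed either. The 6 on the array, with the untested SLC22A among them, had sums of 1239 to 1516 in gain larvae and 1761 to 1913 in control larvae. None of 8 muscle markers passed (sums 189647 to 221932 in gain, 206652 to 209587 in control), and none of 11 haemocyte markers (31761 to 36335 in gain, 33422 to 33543 in control). None of 2 tested neuron markers of 7 on the array passed, nor any of 3 tested oenocyte markers of 5. Of 3 tested male germline markers of 9 on the array ocn and betaTub85D fell. Both lay below the floor of 4 on all gain arrays and passed the filter through their control arrays alone. The intensities of all 9 summed to 82.6 to 131 in gain larvae and 165 to 198 in control larvae. The part of midgut, fat body, tubule or germline content in the differences of the clan 3 genes was not tested.

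**Figure D5:**
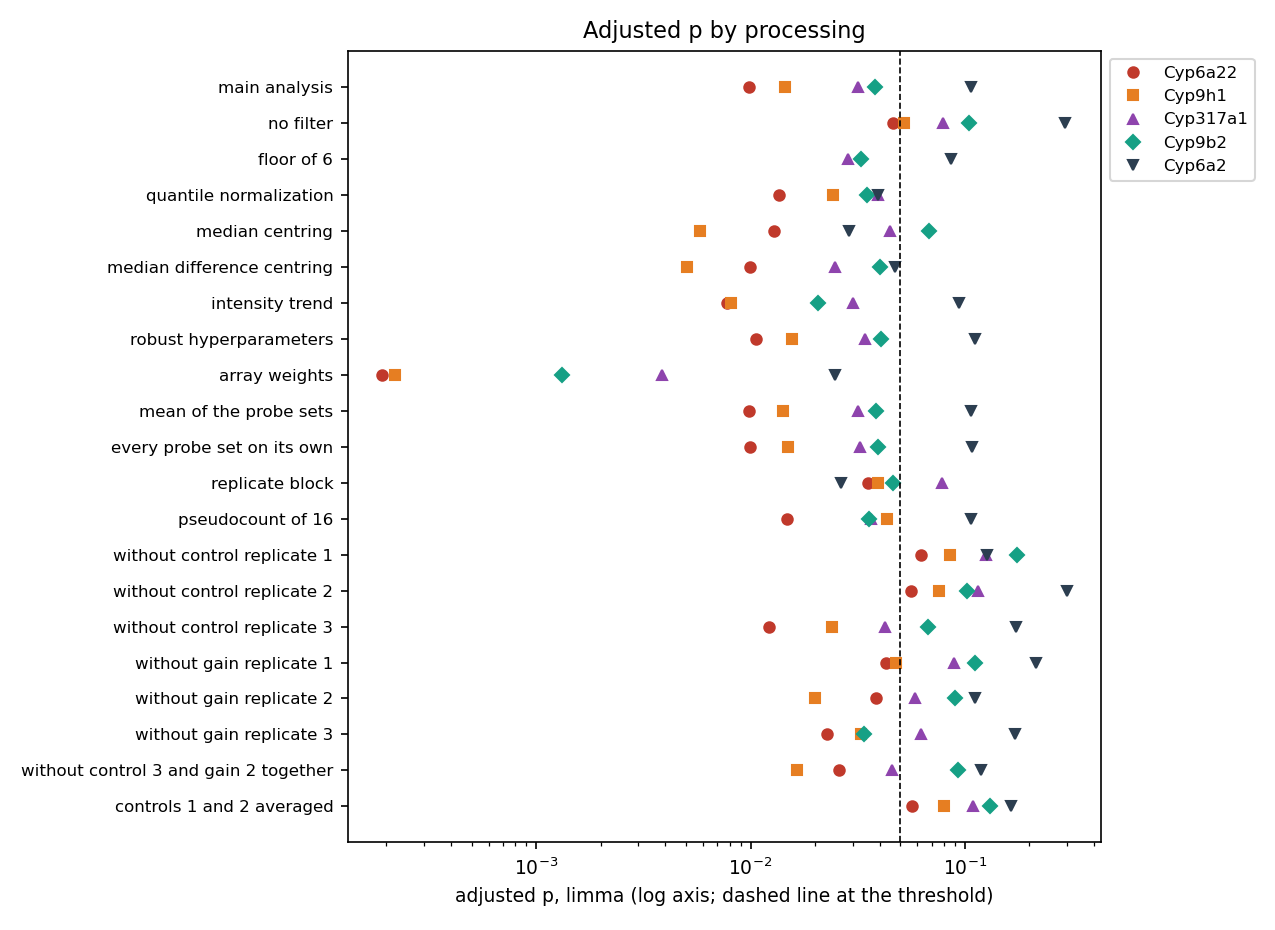
Adjusted p from limma (horizontal log axis, dashed line at the threshold of 0.05) of the 4 called genes and Cyp6a2 in the main analysis and in each of 20 other ways of processing the data, 1 to a line. The 4 called genes lie right of the line without control 1, without control 2 and with controls 1 and 2 averaged, and Cyp6a2 lies left of it in 5 settings; the floor of 6 gave no value for Cyp6a22 and Cyp9h1.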

How the data were processed

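Each array has 1 deposited intensity for each probe set, not on a log scale. The submitters' processing notes name GCRMA, and no version, scanner setting or genome build is given in the sources used here. Intensities ran from 2.54 to 86989. Of 18952 probe sets, 13647 had 1 gene in the platform annotation, 402 several, 4720 none listed and 183 were array controls. A RefSeq table (Release 6 plus ISO1 MT) held 13544 of the 13647 and was used for symbols and gene order alone.

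Log2 values were taken with no pseudocount. Probe sets at 4 or more on at least 3 arrays numbered 8395, and the brightest of each gene left 7974 tests. The 2 groups were fitted without covariates by limma's lmFit and eBayes (limma 3.58.1, R 4.3.3), with Benjamini-Hochberg adjustment over all tests. The procedure was also run on simulated data in which all arrays had equal spread. The arrays here were not equally spaced, so that run cannot vouch for the calls. All adjusted p-values are from limma. Exact tests used SciPy 1.17.1 and figures Matplotlib 3.10.9. Members, lists and settings were chosen with earlier results of these data known. Arrays were shown for called members, for those whose groups did not overlap and for the 8 uncalled members with the largest difference; arrays of other genes were added where they bear on a result. The number of arrays limits the precision. Alternatives covered the filter, scaling, pseudocount, variance model, probe set choice, replicate block and leaving out arrays.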

Additional observations from a re-analysis of the deposited data

How the results depend on the processing

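The 19 other settings and 1 more added after seeing the data (controls 1 and 2 averaged) all kept the negative direction of Cyp6a22, Cyp9h1, Cyp317a1 and Cyp9b2 where they tested them. Against 4 members called lower, 1 remained with no filter, 2 were called with a floor of 6, 11 with array weights, 6 without control 3 and gain 2 together and 0 with controls 1 and 2 averaged; leaving out 1 array gave 0 to 4, with 0 without control 1 or control 2. Cyp6a2 was the 1 member called higher with quantile normalization, median centring, median difference centring, array weights and the replicate block; leaving out 1 array gave 0. Over all tests 36 were called higher and 277 lower. Higher calls numbered 17 with no filter, 170 with quantile normalization, 204 with median centring, 129 with median difference centring and 638 with array weights. Lower calls numbered 85 with no filter and 1928 with array weights, a setting whose weights ran from 0.137 to 7.44 and did not fully converge. Leaving out 1 array gave 12 to 51 higher and 27 to 374 lower. Without control 3 and gain 2 together 129 were higher and 631 lower, and with controls 1 and 2 averaged 13 were higher and 40 lower. The cause of these changes was not tested, except that fewer arrays or more tests enter some fits.

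Differences turned positive with quantile normalization for Cyp6u1 (0.032), Cyp309a1 (0.030), Cyp6d4 (0.013), Cyp6d5 (0.043) and Cyp6a14 (0.10). With median centring they were 0.066, 0.13, 0.14, 0.17 and 0.19 for the same genes in that order. With median difference centring Cyp309a1 (0.020), Cyp6d4 (0.037), Cyp6d5 (0.067) and Cyp6a14 (0.083) turned. Array weights changed the sign of Cyp6a20 (0.10), Cyp28a5 (-0.12) and Cyp9b1 (-0.10). Over the fits that leave out 1 array, Cyp6d5 ran from -0.21 to 0.013, Cyp6a14 from -0.26 to 0.087 and Cyp9b1 from -0.19 to 0.14, and with controls 1 and 2 averaged Cyp6a14 was at 0.033. None of these genes passed with the values as deposited.

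With the replicate number as a block 3 members were called lower and 1 higher, Cyp317a1 being lost (adjusted p = 0.0781). Whether the numbers pair the arrays is not known. Deviations of same-numbered arrays from their group means correlated at 0.21, 0.03 and 0.37, while gain 1 correlated best with control 2, at 0.34. Deviations within a group this small are tied to each other, so these correlations cannot decide the question. Without depth or detection calls, background is known only from the low end of the intensities.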
